A study of Mus musculus with 39 samples.

Results

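Matrix metalloproteinases (MMPs), ADAMTS proteases and their tissue inhibitors (TIMPs) were examined in kidney, liver, lung and skin of young and old perforin-deficient mice. Members were all genes whose symbol begins with Mmp or Timp and a digit, or with Adamts, which gave 51 of 24537 genes in the kidney, liver and lung table and 51 of 52508 in the skin table. They comprised 23 MMPs, 19 ADAMTS proteases, 5 ADAMTS-like (ADAMTSL) proteins and 4 TIMPs. All mice were Prf1-/- on a C57BL/6 background and so lacked perforin, the pore-forming protein of cytotoxic lymphocyte granules; no perforin-sufficient mouse was included. Young mice were 3 months old and untreated, and old mice were 20 months old. From 18 months of age the old mice received 2 daily injections a month for 2 months, of either vehicle or 25 mg/kg ABT-737, an inhibitor of anti-apoptotic BCL-2 family proteins used to eliminate senescent cells. Kidney, liver and lung had 4 young, 3 vehicle and 3 ABT-737 libraries each, and skin had 3 of each, 39 libraries in all. The young mice had no vehicle injections, so age and injection cannot be told apart in the comparison of old vehicle-treated with young mice.

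MMPs are zinc-dependent endopeptidases that cut collagens, laminins, elastin and many non-matrix proteins. Most are secreted as latent proenzymes, while a membrane-type group that includes Mmp14 is anchored at the cell surface. ADAMTS enzymes are secreted relatives with thrombospondin repeats: Adamts2 and Adamts14 trim procollagens, Adamts1, Adamts4, Adamts5, Adamts9 and Adamts15 cut aggrecan and versican, and the ADAMTSL proteins lack the protease domain and reside in the microfibril network. TIMPs bind the active site of the proteases, and Timp2 together with Mmp14 also activates pro-Mmp2. Several members belong to the secretory programme of senescent cells, which is the question the comparisons of age and ABT-737 address here.

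The libraries were made from bulk RNA by a 3′ end method, and the deposited values were whole-number read counts per gene. Kidney libraries held 1431814 to 3513311 counts and lung libraries 1046508 to 2600092. Liver was shallower, at 223957 to 891116 counts per library, and skin ranged between 1493411 and 3842808. Levels are given as CPM, a gene's counts relative to the TMM-scaled total of its library, and a count of 3 was taken as the limit that a 0 allows, which corresponded to 0.827 to 2.05 CPM in kidney but to 3.51 to 13.1 CPM in liver. These limits cover counting error only. The low-count filter kept 15 members among 11123 genes of kidney and 6 among 5583 of liver, and it kept 24 both among 11949 genes of lung and among 14224 of skin. Members that pass such a filter through 1 group are more likely to differ between groups, so the members tested do not stand for all 51. Each library held the fixed markers of its labelled tissue. The summed level of 6 kidney genes was at least 9669 CPM in kidney, that of 6 liver genes at least 44793 CPM in liver, that of 6 lung genes at least 27593 CPM in lung and that of 6 skin genes at least 10059 CPM in skin. In bulk RNA, fewer cells of a type and less RNA per cell cannot be told apart.

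A group of 10 members lies side by side on chromosome 9 (GRCm38, chr9:7272514-7699585). Promoters from this cluster are shown because several of its members had at most 2 counts in the young libraries of a tissue and more in old ones. A match to the AP-1 motif TGAGTCA, searched on both strands (its reverse complement is TGACTCA), was present between 250 bases before and 50 bases after the RefSeq start (GRCm38.p6) in 7 of the 36 members with a promoter in the table (19.4%). The same motif was found in a promoter of 1607 of the 27025 genes of that table (5.95%). The 7 matches were Mmp1a, Mmp1b, Mmp3, Mmp7, Mmp10, Mmp12 and Mmp13, that is 7 of the 10 cluster members and 0 of the 26 members outside the cluster that had a promoter. AP-1 is the dimer of Fos and Jun proteins. The 4 sequences below are the 110 bases before the start of 4 cluster genes that had a match and had counts in old animals. They are written 5′ to 3′ on the strand of the gene, which is the + strand in each case, with the match in capitals. Other cluster genes with counts in old animals are not printed: Mmp1b and Mmp12, which have a match, and Mmp8 and Mmp27, which have none.
Mmp3 (chr9:7445712-7445821): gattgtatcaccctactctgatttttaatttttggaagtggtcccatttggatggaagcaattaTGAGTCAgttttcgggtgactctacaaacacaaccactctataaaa
Mmp7 (chr9:7691980-7692089): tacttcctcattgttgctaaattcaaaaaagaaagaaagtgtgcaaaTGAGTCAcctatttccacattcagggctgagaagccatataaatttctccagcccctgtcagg
Mmp10 (chr9:7502232-7502341): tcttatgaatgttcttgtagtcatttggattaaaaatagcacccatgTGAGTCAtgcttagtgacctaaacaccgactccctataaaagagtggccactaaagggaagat
Mmp13 (chr9:7272404-7272513): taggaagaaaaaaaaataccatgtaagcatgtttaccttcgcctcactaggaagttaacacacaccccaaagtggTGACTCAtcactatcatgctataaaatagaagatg
The match began 46 bases before the start in Mmp3, 63 in Mmp7 and Mmp10 and 35 in Mmp13. These are matches of letters and not measured binding sites.

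Young tissues differed in their members. Of 21 members tested, all 21 differed between lung and liver (edgeR quasi-likelihood test, adjusted p under 0.05; 69.4% of all 11867 genes tested were called), 20 between kidney and lung (74.7% of all genes) and 11 between kidney and liver (51.5% of all genes). Lung was the higher tissue for 19 of 21 members against liver, where 40.6% of all genes were called higher in lung, and for 18 of 21 against kidney, where 36.5% were called higher in lung and 38.3% in kidney. Kidney was called higher than liver for 8 of the 21 members and lower for 3, against 33.7% and 17.8% of all genes. Leaving out 1 library at a time gave 20 to 21, 20 to 21 and 9 to 11 calls for the 3 comparisons.

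The inhibitors had different tissue orders. Timp3, the matrix-bound inhibitor, averaged 1271 ± 124 CPM (SD, n = 4) in young kidney, 502 ± 65.2 in lung and 33.7 ± 16.5 in liver. The log2 difference between kidney and lung was 1.34 (SE 0.17), and the 3 levels did not overlap. Timp2 was highest in lung at 681 ± 97.1 CPM, followed by kidney at 86.7 ± 4.61 and liver at 32.5 ± 6.22. Lung exceeded kidney by 2.97 and liver by 4.38 on the log2 scale (SE 0.15 and 0.19). Timp1, the cytokine-induced inhibitor, averaged 7.96 ± 3.00 CPM in young lung, but its counts in the other young tissues did not exceed 4 in kidney and 2 in liver. Timp4 had at most 2 counts in any kidney library and 0 in every liver library.

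Young liver was called higher than young kidney for 3 members, all proteases: the membrane-type Mmp14 and Mmp15 and the secreted Mmp19. Mmp14 averaged 82.6 ± 4.55 CPM in liver, 30.0 ± 6.94 in lung and 13.5 ± 5.55 in kidney, and liver exceeded kidney by 2.58 on the log2 scale (SE 0.25). Mmp19 averaged 89.5 ± 21.0 CPM in liver, 13.6 ± 1.36 in lung and 0.814 ± 0.384 in kidney. Mmp15 averaged 114 ± 28.1 CPM in lung and 81.0 ± 16.2 in liver, a log2 difference of 0.49 (SE 0.19, edgeR adjusted p = 0.0241), against 2.72 ± 0.627 in kidney. Lung had the higher levels of the gelatinase Mmp2 (84.6 ± 32.6 CPM, against 4.77 ± 1.91 in kidney), of Adamts10, a microfibril-associated protease (152 ± 35.3 against 13.3 ± 4.77), and of Adamtsl4 and Adamtsl5 (56.5 ± 12.01 against 4.76 ± 0.378 and 52.6 ± 8.33 against 3.89 ± 1.04). Kidney was called higher than lung for 2 of the 21 members, Timp3 and Adamts5, an aggrecan-cutting enzyme of cartilage (20.0 ± 3.39 against 9.64 ± 2.47 CPM). Adamts15 had 0 counts in all 4 young liver libraries and averaged 46.9 ± 12.6 CPM in lung.

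**Figure D1:**
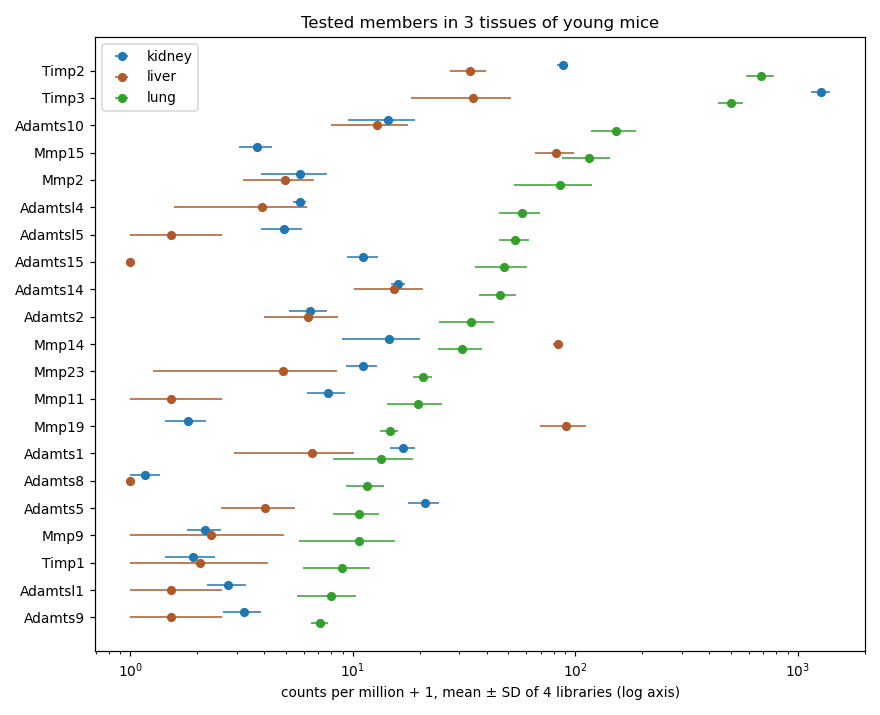
Mean level ± SD of the 21 tested members in 4 young libraries of each tissue, in CPM (scaled jointly over these tissues) plus 1 on a log axis, ordered by the lung mean. Lung points lie to the right of liver points for 19 of the 21 members, Mmp14 and Mmp19 are the exceptions, and Timp3 is highest in kidney at 1271 CPM.

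In old kidney, 5 of 15 tested members were called between vehicle-treated and young mice, where 13.3% of all genes were called. Timp1, Adamts15, Mmp14 and Adamtsl5 rose (7.75% of all genes were called higher) and Mmp11 fell (5.5% lower). Timp1 (chrX:20870166-20874737) had 13, 8 and 11 counts in the vehicle libraries against 2, 3, 2 and 4 in the young ones. On the CPM scale these were 5.10, 5.47 and 5.16 against 0.858, 0.827, 0.585 and 1.85, so the groups did not overlap. Its log2 difference was 2.38 (SE 0.49, edgeR adjusted p = 0.00408), the largest increase among the called members of kidney. Of the called members, Timp1, Timp2 and Mmp19 overlap other annotated genes. Syn1 overlaps Timp1, and Gm47093 and Tmem198b overlap Mmp19, on the opposite strand in each case. Cep295nl overlaps Timp2 on the same strand, so strand alone would not separate their reads. Whether the counting used strand is not given in the sources used here.

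Adamts15 (chr9:30899155-30920950) measured 24.3, 26.7 and 17.4 CPM in the vehicle kidneys and 14.15, 11.02, 11.12 and 9.23 in the young. Every vehicle library was above every young one, and the log2 difference was 0.99 (SE 0.21, edgeR adjusted p = 0.00563). Mmp14 (chr14:54431598-54442456) measured 26.7, 46.5 and 29.1 CPM against 20.6, 18.5, 14.9 and 6.46, a log2 difference of 1.12 (SE 0.30, edgeR adjusted p = 0.0202). The groups again did not overlap, but the highest value came from vehicle replicate 4, and without it the log2 difference was 0.86 and its edgeR adjusted p 0.113; without young replicate 3 they were 1.09 and 0.0592. Adamtsl5 (chr10:80339793-80348448) measured 7.46, 10.9 and 7.51 CPM against 6.00, 3.86, 4.39 and 3.23, with a log2 difference of 0.95 (SE 0.30, edgeR adjusted p = 0.0467). This call sat close to the threshold and was kept in 2 of 10 fits that left out 1 library.

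Mmp11 (stromelysin 3, chr10:75923222-75932502), a stromal enzyme that is activated inside the cell, went the other way in kidney. It had 4, 3 and 7 counts in the vehicle libraries and 22, 21, 29 and 14 in the young ones. The levels of 1.57, 2.05 and 3.29 CPM lay below all young levels, which were 9.43, 5.79, 8.49 and 6.46 CPM. The log2 difference of -1.69 (SE 0.38, edgeR adjusted p = 0.00808) was called in all 10 fits without 1 library. The other 10 tested members of kidney were not called. Timp3 measured 1593, 1130 and 1396 CPM in vehicle kidneys and 1646, 1380, 1314 and 1366 in young ones, a log2 difference of -0.05 (SE 0.15). Timp2 and Adamts5 differed by 0.26 (SE 0.14) and 0.19 (SE 0.18) on the log2 scale, and Mmp2, Adamts1 and Adamts2 by 0.23 (SE 0.48), 0.04 (SE 0.24) and 0.10 (SE 0.35). Over the 15 members the median log2 difference was 0.23, against 0.01 over all genes tested; without vehicle replicate 4, when 17 members passed the filter, it was 0.12.

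Mmp7 (matrilysin), an epithelial enzyme known from injured tubules, was too low in kidney for the test. It had 10, 8 and 5 counts in the vehicle kidneys, 6, 4 and 4 in the ABT-737 kidneys and 0, 1, 2 and 0 in the young ones. No young library reached the lowest old one, although the deepest kidney libraries were young ones. Adamts4, an aggrecan-cutting enzyme, had 6, 11 and 4 counts in vehicle, 4, 3 and 2 in ABT-737 and 0, 2, 1 and 3 in young kidneys. When no filter on low counts was applied, Mmp7 and Adamts4 were among 7 members called between vehicle-treated and young kidneys by the same test, with 10.6% of all genes.

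Other cell types moved with age in kidney. All 9 tested macrophage markers and all 7 tested markers of T and NK cells were called higher in vehicle-treated than in young kidneys. The summed level of the 12 macrophage genes, of which C1qb was the most abundant, was 956, 1380 and 806 CPM in vehicle kidneys and at most 299 CPM in young ones. The summed neutrophil markers were 6.28, 21.2 and 10.3 CPM in vehicle kidneys and at most 4.15 CPM in the others, and none passed the filter. The summed fibroblast markers were 413 CPM in vehicle replicate 4 and 156 to 274 CPM in the other 9 kidneys. With ABT-737 the macrophage sum was 329 to 552 CPM, and 4 of the 9 tested markers were called lower than with vehicle. The part of these cells in the levels of Timp1, Mmp14 and the other members was not tested. The fixed kidney markers summed to 9669 to 10538 CPM in vehicle and 10546 to 11487 CPM in young kidneys.

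**Figure D2:**
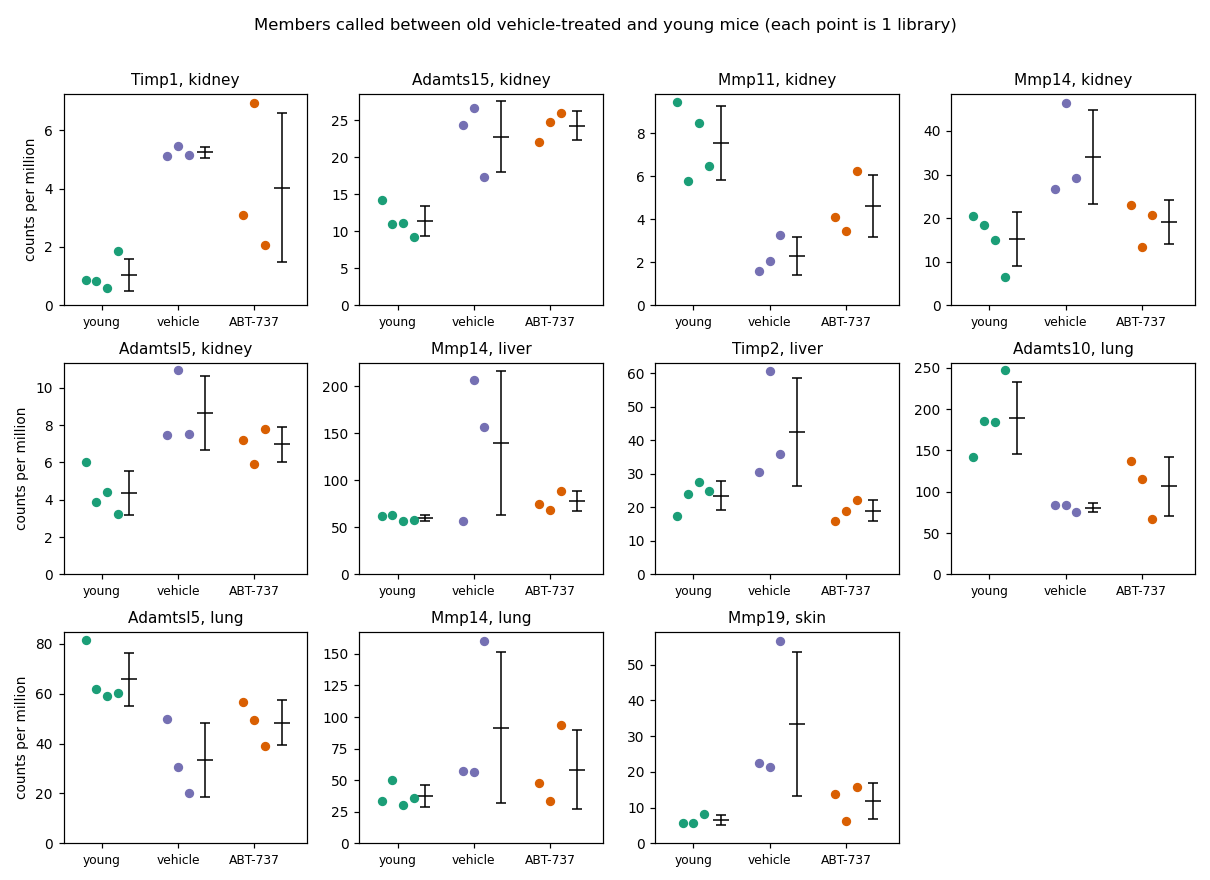
Level in CPM of each member called between old vehicle-treated and young mice, 1 point per library, with the mean and SD of each group at its right. Timp1, Adamts15, Mmp14 and Adamtsl5 in kidney separate without overlap, Mmp14 in liver has 1 vehicle library at the young level, and Mmp14 in lung and Mmp19 in skin have 1 vehicle library far above the others.

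ABT-737 left the kidney members without a call. Of 15 members tested between ABT-737 and vehicle, 0 were called by edgeR, where 1.35% of all genes were called, and 5 members had an unadjusted p under 0.05. DESeq2 called 0 as well. Those 5 were Timp2, Mmp14, Adamtsl4, Timp3 and Mmp11, all core members. Without vehicle replicate 4, when 17 members were tested, 1 had an unadjusted p under 0.05. Mmp14 measured 23.1, 13.4 and 20.8 CPM with ABT-737, below the 3 vehicle libraries, with a log2 difference of -0.81 (SE 0.33, edgeR adjusted p = 0.254). Mmp11 measured 4.11, 3.46 and 6.23 CPM, above the 3 vehicle libraries (log2 difference 0.99, SE 0.45, edgeR adjusted p = 0.319). Timp2 was at 93.0, 94.0 and 77.4 CPM against 99.3, 126 and 125 with vehicle (log2 difference -0.40, SE 0.15). Timp3 was at 1614, 1966 and 1752 CPM, a log2 difference of 0.37 (SE 0.16). Against young kidneys, Adamts15 was the 1 member called with ABT-737 (2.12% of all genes were called), at 22.09, 24.74 and 25.96 CPM and a log2 difference of 1.09 (SE 0.21, edgeR adjusted p = 0.0124). Timp1 was at 3.08, 6.93 and 2.08 CPM, and its difference from young of 2.02 (SE 0.51) had an edgeR adjusted p of 0.0517. The comparisons with young and with vehicle share the ABT-737 libraries.

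In liver, 6 members were tested and 2 of them rose between young and old vehicle-treated mice, where 22.6% of all genes were called, 11.7% higher and 10.8% lower. Mmp14 measured 56.7, 207 and 157 CPM in vehicle replicates 3, 4 and 5, and 62.0, 62.6, 56.8 and 57.5 CPM in the young. Replicates 4 and 5 were above all young livers, and replicate 3, which had the fewest counts of all libraries, was at the young level. Replicate 3 also had the lowest summed liver markers (44793 CPM), with Alb at 8907 CPM against 30297 to 41155 CPM in the other livers. The log2 difference of Mmp14 was 1.31 (SE 0.30, edgeR adjusted p = 0.00504) and was called in all 10 fits without 1 library. Timp2 (chr11:118301061-118355411) measured 30.5, 60.9 and 36.0 CPM against 17.4, 23.8, 27.6 and 24.9. The groups did not overlap, and the log2 difference was 0.92 (SE 0.30, edgeR adjusted p = 0.0354). Without vehicle replicate 4 the Timp2 difference was 0.54 and its edgeR adjusted p 0.280. Timp2 was called in 5 of 10 fits that left out 1 library and in 1 of 5 other settings, and DESeq2 called Mmp14 alone (19.7% of all genes). The 4 other tested members of liver, Mmp15, Mmp19, Timp3 and Adamts14, had log2 differences of 0.10, 0.05, 0.24 and 0.85 (SE 0.30, 0.27, 0.42 and 0.43).

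With ABT-737 both liver members were lower than with vehicle but were not called. Timp2 measured 15.9, 19.0 and 22.3 CPM with ABT-737, below all 3 vehicle livers (log2 difference -1.21, SE 0.36, edgeR adjusted p = 0.0792). Mmp14 measured 75.3, 68.3 and 89.1 CPM, between vehicle replicate 3 and the 2 high vehicle livers (log2 difference -0.94, SE 0.33, edgeR adjusted p = 0.1397). In this comparison 3.85% of all genes (2.85% lower, 1% higher) and 0 of the 6 members were called by edgeR and 0 by DESeq2, with 2 members at an unadjusted p under 0.05. Leaving out vehicle replicate 3, the shallow library, brought both Mmp14 and Timp2 below the threshold, with 5.64% of all genes called lower and 3.14% higher. Without vehicle replicate 4 instead, edgeR called 0 of the 6, with 0 at an unadjusted p under 0.05 (1.66% of all genes lower, 0.496% higher). Against young livers 0 of 6 members were called by edgeR, with 0 at an unadjusted p under 0.05 and 8.4% of all genes called, and DESeq2 gave 0.

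Below the filter in liver, Mmp7 had 8 and 8 counts in vehicle replicates 4 and 5, 0 in vehicle replicate 3 and in all ABT-737 livers, and 0, 0, 0 and 1 in the young. Timp1 had 0, 5 and 2 counts in vehicle livers, 0 in each ABT-737 liver and 0, 2, 0 and 0 in the young. Without a filter on low counts Mmp7 was called by edgeR in 2 comparisons, as 1 of 3 members higher in vehicle-treated than in young livers (13.6% of all genes) and as the 1 member lower with ABT-737 than with vehicle (3.57% of all genes). Timp1 was called in neither. Vehicle replicates 4 and 5, the 2 deepest livers, also had the highest summed cholangiocyte markers (306 and 144 CPM against 35.7 to 87.1 in the others; Spp1 was the most abundant) and fibroblast markers (320 and 202 CPM against 56.9 to 106). Their summed neutrophil markers, led by Ngp, were 108 and 41.1 CPM, against 17.5 CPM in vehicle replicate 3 and at most 5.96 CPM in the other 7. Macrophage markers summed to 1693, 1799 and 1998 CPM in vehicle livers, 266 to 520 CPM with ABT-737 and 337 to 480 CPM in the young. All 8 tested macrophage markers were called higher with age and 7 of them lower with ABT-737. Stellate and smooth muscle cell markers summed to 82.9, 104 and 84.8 CPM in vehicle livers, 23.8 to 58.8 CPM with ABT-737 and 36.9 to 63.3 CPM in the young. T and NK cell markers summed to 91.6 to 164 CPM in vehicle livers, 13.3 to 27.2 CPM with ABT-737 and at most 12.3 CPM in the young. The part of these cells in the Mmp14 and Timp2 levels was not tested.

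In old lung 3 of 24 tested members were called between vehicle-treated and young mice (12.9% of all genes), with Adamts10 and Adamtsl5 lower (4.73% of all genes) and Mmp14 higher (8.15%). Adamts10 (chr17:33524085-33553782) measured 83.8, 83.6 and 75.2 CPM in vehicle lungs and 142, 186, 184 and 247 in young ones. The groups did not overlap, and the log2 difference was -1.23 (SE 0.29, edgeR adjusted p = 0.0142). Adamtsl5 measured 49.6, 30.4 and 20.2 CPM against 81.4, 61.9, 59.1 and 60.3 (log2 difference -0.99, SE 0.31, edgeR adjusted p = 0.0460). All vehicle lungs were again below all young ones, but the call was kept in 4 of 10 fits that left out 1 library, with an edgeR adjusted p of up to 0.214. Mmp14 measured 57.7, 56.2 and 160 CPM against 33.8, 50.1, 30.4 and 35.9, with a log2 difference of 1.30 (SE 0.41, edgeR adjusted p = 0.0497). Vehicle replicate 5 carried most of this increase, and without it the log2 difference was 0.61 and the edgeR adjusted p 0.407. The Mmp14 call too was kept in 4 of 10 fits without 1 library.

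The inhibitors of lung were not called. Timp2 measured 592, 516 and 354 CPM in vehicle lungs and 905, 856, 967 and 678 in the young, with no overlap (log2 difference -0.81, SE 0.29, edgeR adjusted p = 0.0809). Timp3 measured 649, 413 and 267 CPM against 553 to 745 in the young, a log2 difference of -0.50 (SE 0.35), while Timp1 and Timp4 differed by 0.56 (SE 0.35) and 1.10 (SE 0.67). Mmp19 measured 22.8, 24.0 and 58.7 CPM against 15.7 to 19.5 in the young (log2 difference 1.06, SE 0.35, edgeR adjusted p = 0.0615). Adamts9, a versican-cutting enzyme, measured 3.35, 3.86 and 1.12 CPM against 6.87 to 8.68 (log2 difference -1.48, SE 0.47, edgeR adjusted p = 0.0539). Of the 24 members 17 had a log2 difference below 0, and the median was -0.51 against 0.04 over all genes tested; without vehicle replicate 5, 15 of 25 were below 0 and the median was -0.24.

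The low leukocyte-associated members of lung were below the filter. Mmp8, the neutrophil collagenase, had 6, 8 and 5 counts in vehicle lungs, 1, 3 and 4 with ABT-737 and 0, 1, 0 and 0 in the young. Mmp12, the macrophage elastase, had 4, 2 and 9 counts in vehicle lungs, 4, 5 and 10 with ABT-737 and 1, 0, 0 and 2 in the young. In neither gene did a young lung reach the count of the lowest vehicle lung, apart from the tie at 2 counts in Mmp12. Without a low-count filter Mmp8 was among 6 members called between vehicle-treated and young lungs, with 10.6% of all genes. The summed neutrophil markers, led by S100a9, were 128 to 228 CPM in vehicle lungs, 107 to 140 with ABT-737 and 58.6 to 79.0 in the young, and 2 of 5 tested were called higher with age. The part of these cells in the Mmp8 counts was not tested.

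Vehicle replicate 5 stood apart from the other lungs and decided several of these values. It had the highest summed T and NK cell markers (3326 CPM, against 892 and 1028 in the other vehicle lungs and at most 193 in the young) and macrophage markers (7057 CPM). It also had the lowest summed lung markers (27593 CPM, against 40956 and 50322) and endothelial markers (762 CPM, against 1425 and 2308). Without this library 0 of the members and 4.08% of all genes were called between vehicle-treated and young lungs, and Adamts10 had a log2 difference of -1.18 and an edgeR adjusted p of 0.0673. Without vehicle replicate 3 instead, 7 members and 10.5% of all genes were called. Over all vehicle lungs, 10 of 11 tested T and NK cell markers were called higher than in young lungs and 3 of 8 fibroblast markers lower. The part of these cell types in the member levels was not tested.

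With ABT-737, 0 of 24 members and 0% of all genes were called in lung by edgeR, with 1919 genes and 4 members at an unadjusted p under 0.05. Without vehicle replicate 5, 2 of 25 members tested were at an unadjusted p under 0.05. No label pairs vehicle with ABT-737 lungs. Same-numbered lungs deviated together, but so did vehicle replicate 4 with ABT-737 replicate 3 (correlation 0.303) and vehicle replicate 3 with ABT-737 replicate 5 (0.129). The remaining unlike-numbered pairs had correlations below 0. With the number as a block, 7.31% of all genes and 1 member were called. That member was Adamtsl1, named after its values were seen, which measured 18.0, 12.6 and 12.1 CPM with ABT-737, 5.37, 6.00 and 2.62 with vehicle and 5.97 to 12.5 in the young. Its log2 difference with the block was 1.65 (SE 0.41, edgeR adjusted p = 0.0262), and without the block it was 1.63 (SE 0.44, edgeR adjusted p = 0.129); DESeq2 without the block called it too, with 2.52% of all genes. Timp2 measured 823, 822 and 611 CPM with ABT-737, above all vehicle lungs (log2 difference 0.63, SE 0.31, edgeR adjusted p = 0.330). Adamts10 measured 138, 115 and 67.6 CPM, overlapping vehicle, and Mmp14 measured 47.7, 33.7 and 93.5 CPM (log2 difference -0.63, SE 0.43). The ABT-737 library with number 4 had summed adipocyte markers of 4795 CPM, against 11.97 to 170 CPM in the other 9 lungs. Summed T and NK cell markers were 227, 411 and 728 CPM with ABT-737 against 892 to 3326 CPM with vehicle, and fibroblast markers were 984 to 1380 CPM against 728 to 965 CPM, without overlap in either. The part of these cells in the member levels was not tested. Between ABT-737 and young lungs 2.55% of all genes and 0 members were called by edgeR and 0 members by DESeq2, with 5 members at an unadjusted p under 0.05.

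**Figure D3:**
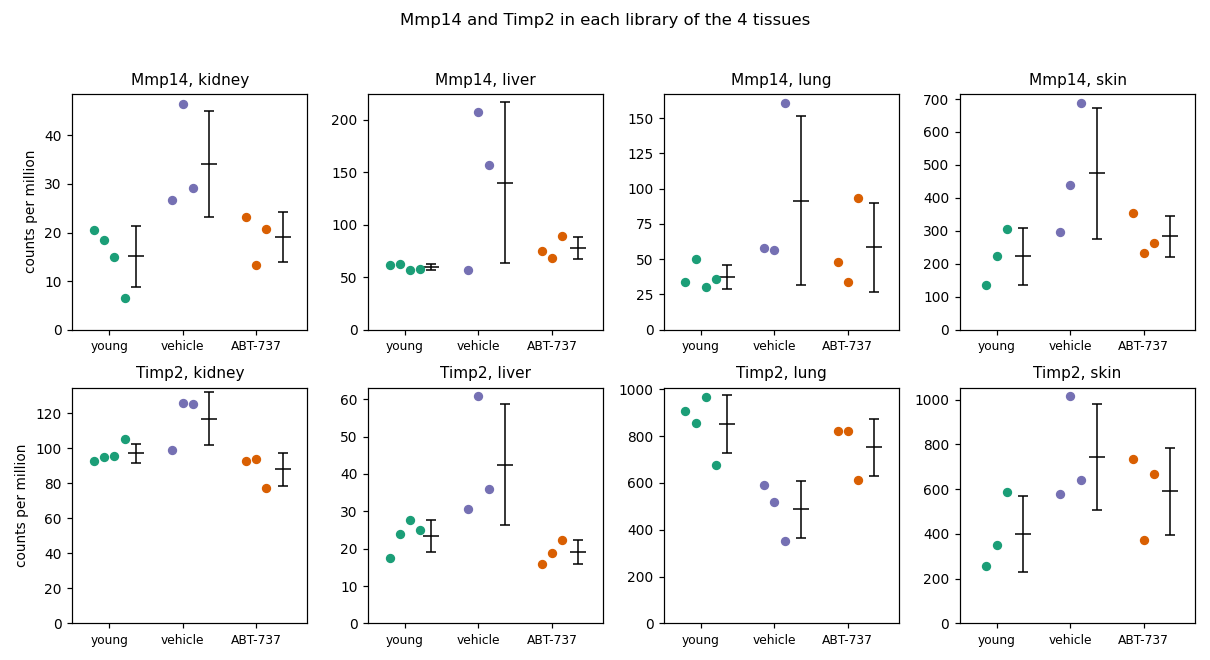
Mmp14 and Timp2 in each library of the 4 tissues, in CPM, with the mean and SD of each group. Mmp14 is highest in a vehicle library in every tissue, whereas Timp2 is lower in all 3 vehicle lungs and higher in all 3 vehicle livers than in the young.

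The effect of age on the members was compared directly between kidney, liver and lung, which were fitted together. Timp2 differed between lung and liver, where it was -0.81 and 0.93 on the log2 scale, a difference of -1.74 (SE 0.36, edgeR adjusted p = 0.00176; 11.4% of all genes were called). It also differed between kidney and lung by 1.06 (SE 0.30, edgeR adjusted p = 0.0287; 8.04% of all genes were called). Adamts15 was 0.97 in kidney and -0.70 in lung (difference 1.67, SE 0.43, edgeR adjusted p = 0.0174), and Adamtsl5 was 0.93 in kidney and -1.01 in lung (difference 1.94, SE 0.49, edgeR adjusted p = 0.0153). In both sets 4 of 24 members were called. Those between lung and liver included Adamts15 and Mmp17, which had 0 counts in every young liver and at most 3 and 4 in vehicle livers. For these members the liver side rests on 0 counts. Between kidney and liver 0 of the 24 were called by edgeR, where 0.786% of all genes were called and 3 members had an unadjusted p under 0.05. The 4 calls between kidney and lung became 0 without kidney vehicle replicate 4 and likewise without lung vehicle replicate 5. Mmp14, which rose in each of the 3 tissues, was called in no such difference. For ABT-737 against vehicle, 0 of 24 members were called by edgeR between kidney and liver (0.0839% of all genes; 1 member at an unadjusted p under 0.05) or between kidney and lung (0% of all genes; 5 members). Timp2 was 0.63 in lung and -1.22 in liver. The difference of 1.85 (SE 0.41, edgeR adjusted p = 0.0371; 0.29% of all genes were called) was lost without any 1 of 7 libraries, among them lung vehicle replicate 5 and liver vehicle replicate 4.

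In skin 1 of 24 tested members was called between vehicle-treated and young mice, where 11.2% of all genes were called, 5.84% higher and 5.35% lower. This was Mmp19 (chr10:128790910-128800827), a secreted enzyme that cuts basement membrane proteins, at 22.4, 21.4 and 56.6 CPM with vehicle and 5.79, 5.75 and 8.19 in the young. The groups did not overlap, and the log2 difference was 2.33 (SE 0.50, edgeR adjusted p = 0.0233). Without vehicle replicate 5 it was 1.71 and no member was called (2.62% of all genes), nor was any without young replicate 1 or 2. An unadjusted p under 0.05 was reached by 17 of the 24 members, and by 11 of 24 without vehicle replicate 5. DESeq2 called 11 members and 18.7% of all genes, with Mmp2, Mmp3, Mmp9, Mmp11, Mmp14, Mmp19, Adamts5 and Adamts15 higher and Adamtsl4, Adamtsl5 and Mmp15 lower. The members of skin were spread around a median log2 difference of 0.89, against 0.05 over all genes tested.

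Mmp14, Timp2 and the gelatinase Mmp2 act together at the cell surface, and none of them, nor the other gelatinase Mmp9, was called by edgeR in skin. Mmp2 measured 206, 378 and 446 CPM with vehicle and 53.5, 89.8 and 155 in the young (log2 difference 1.79, SE 0.51, edgeR adjusted p = 0.0509). Mmp14 measured 296, 440 and 688 CPM against 136, 225 and 307, with 1 overlapping pair (log2 difference 1.09, SE 0.37, edgeR adjusted p = 0.0843). Mmp9, the gelatinase of leukocytes and keratinocytes, measured 9.67, 30.6 and 52.1 CPM against 5.06, 3.45 and 12.3 (log2 difference 2.11, SE 0.66, edgeR adjusted p = 0.0659). Timp2 measured 578, 1014 and 642 CPM against 257, 350 and 587. Each of these had its lowest vehicle value in replicate 3 and its lowest young value in replicate 1 or 2.

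A single skin library, vehicle replicate 5, carried most of the counts of several members. Timp1 had 486 counts there (134 CPM), 14 and 18 in the other vehicle skins, 10, 11 and 17 with ABT-737 and 2, 7 and 2 in the young. Mmp3 (stromelysin 1) had 292 counts there, 14 and 97 in the other vehicle skins and at most 83 in the 6 remaining libraries. Mmp11 had 245 counts there and at most 44 elsewhere. The collagenase Mmp13, below the filter, had 34 counts there and 0 or 1 in each of the other 8 skins, and Adamts4 had 60 there, 2 to 9 in the other old skins and 0 in the young.

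Members of the chromosome 9 cluster did not share 1 pattern in skin. Mmp10 (stromelysin 2), named after its values were seen, had 9 counts in vehicle replicate 5 and 0 in the other 8 skins, and Mmp8 had 10 there and 0 or 1 in the others. Mmp3, Mmp10 and Mmp13, whose promoters are printed above, were all highest in this library, as was Timp1, which lies on another chromosome. Mmp7, whose promoter is printed too, had 0 counts in all 9 skins. Mmp12 had 0 counts in this library, 5 in vehicle replicate 3 and at most 1 in the others, and Mmp27, named after its values were seen, had 13 here but 39 in ABT-737 replicate 3. Mmp1a and Mmp20 of the same cluster had 0 counts in all 39 libraries. This library also had the highest summed T and NK cell markers (118 CPM, against 44.8 and 53.0 in the other vehicle skins) and macrophage markers (3735 CPM, against 1580 and 3137), and the lowest skeletal muscle markers (7834 CPM, against 12852 to 72727 in the other 8). The neutrophil list set it apart further. Elane, its most abundant gene, was at 341 CPM here and at 384 to 789 CPM in the other 8 skins, while the other 10 genes of the list summed to 347 CPM here, with none at 0, against 3.08 and 12.8 CPM in the other vehicle skins, at most 7.44 CPM with ABT-737 and at most 1.36 CPM in the young. The sum without Elane was formed after the values were seen. Summed fibroblast markers were 11805 CPM here, 12204 CPM in ABT-737 replicate 3 and 1550 to 8692 CPM in the other 7. The part of these cell types in the member counts was not tested.

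Skin composition differed between libraries beyond age. The summed hair follicle markers, led by Krt71, were 8582 CPM in vehicle replicate 3 and 19824 and 15724 CPM in ABT-737 replicates 4 and 5, but at most 724 CPM in the other 6 skins. Skeletal muscle markers, led by Acta1, summed to 51056 to 72727 CPM in young and 7834 to 40689 CPM in old skins. Of 11 tested macrophage markers 10 were called higher in vehicle-treated than in young skin. Adamtsl4, Adamtsl5 and Mmp15 were lower in all 3 vehicle skins than in all 3 young ones, which was not set against the share of all genes so separated. Adamtsl4 measured 53.6, 50.2 and 25.9 CPM against 115, 96.7 and 91.4. The part of muscle, follicle and immune cells in these levels was not tested.

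**Figure D4:**
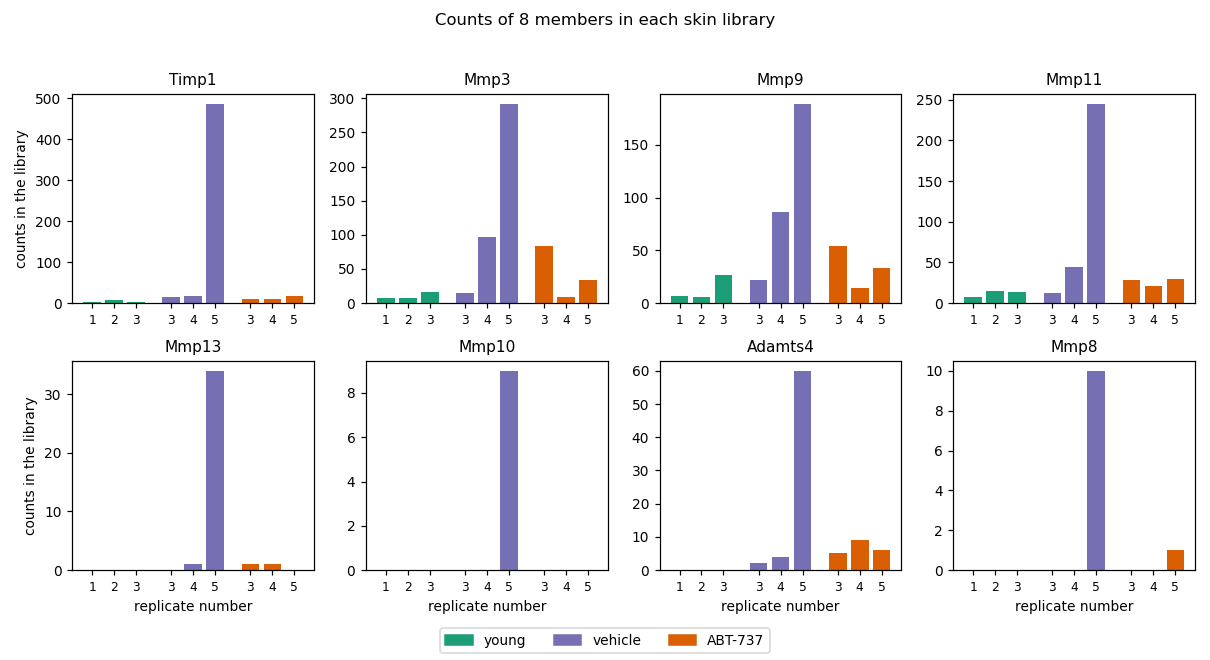
Counts of 8 members in each of the 9 skin libraries, as bars grouped by arm and numbered by replicate. Vehicle replicate 5 has 486 counts of Timp1, 292 of Mmp3, 189 of Mmp9 and 34 of Mmp13, the highest of all skins for each of the 8 genes. The 8 were picked for display, and other members, such as Timp2, Timp3, Timp4, Mmp12 and Mmp27, were not highest there.

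With ABT-737, 0 of 24 members and 0% of all genes were called in skin by edgeR and 0 members by DESeq2, with 1134 genes and 5 members at an unadjusted p under 0.05. Timp1 measured 2.59, 4.31 and 5.18 CPM with ABT-737 against 6.15, 6.41 and 134 with vehicle, and its log2 difference of -3.62 (SE 1.15, edgeR adjusted p = 0.478) came mostly from vehicle replicate 5. Mmp19 measured 13.8, 6.27 and 15.8 CPM, below all vehicle skins (log2 difference -1.48, SE 0.45, edgeR adjusted p = 0.476). Mmp14 measured 353, 232 and 264 CPM and overlapped vehicle. Of the 24 members 21 had a log2 difference below 0, with a median of -0.35 against 0.04 over all genes tested. Without vehicle replicate 5 there were again 21, with a median of -0.31, but 1 member was at an unadjusted p under 0.05. Summed macrophage markers were 1118, 636 and 1352 CPM with ABT-737 against 1580, 3137 and 3735 CPM with vehicle, and those of T and NK cells were 15.7 to 37.5 CPM against 44.8 to 118 CPM. Endothelial markers summed to 155, 109.7 and 122.5 CPM against 179, 250.2 and 269.5 CPM. The part of these cells in the member levels was not tested. Against young skin 0 of 24 members were called by edgeR with ABT-737, where 5.17% of all genes were called and 6 members had an unadjusted p under 0.05. Adamtsl4 was nearest to the threshold, at 49.6, 20.0 and 40.8 CPM (log2 difference -1.45, SE 0.36, edgeR adjusted p = 0.0509), and DESeq2 called it together with 4 other members, all lower, and 14.9% of all genes.

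**Figure D5:**
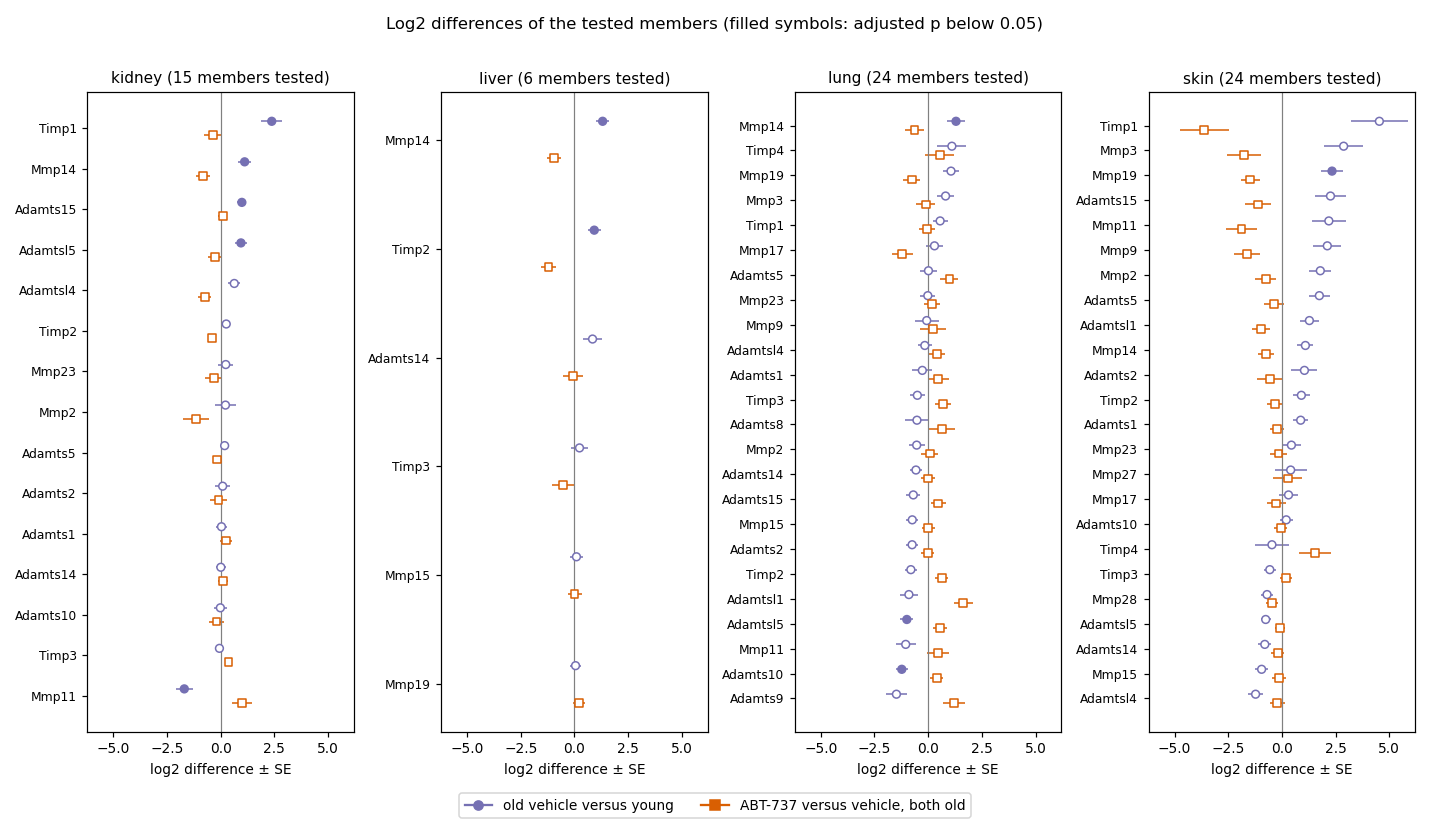
Log2 difference ± SE of every tested member in the 4 tissues, for old vehicle-treated against young mice (circles) and ABT-737 against vehicle (squares), with filled symbols for an edgeR adjusted p under 0.05. Both comparisons use the same vehicle libraries, 11 circles are filled and no square is.

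Genes of the wider pathway were followed in fixed lists. Of the matrix substrates, 5 of 26 tested genes were called higher with age in kidney, where 7.75% of all genes were, among them Bgn (biglycan, log2 difference 0.94, SE 0.16, edgeR adjusted p = 0.00103) and Vwf, the substrate of Adamts13 (1.61, SE 0.36, edgeR adjusted p = 0.00724). In skin 9 of 29 were called higher (5.84% of all genes) and 1 lower (5.35%), and the elastic fibre gene Fbln5 had a log2 difference of 2.93 (SE 0.49, edgeR adjusted p = 0.0134). In lung 9 of 26 were called lower (4.73% of all genes) and 0 higher (8.15%), including the laminin chain gene Lama2 (-1.63, SE 0.34, edgeR adjusted p = 0.00795) and Col1a1 (-1.15, SE 0.28, edgeR adjusted p = 0.0154). In liver 3 of 9 were called higher (11.7% of all genes), among them Dcn (decorin, 1.67, SE 0.42, edgeR adjusted p = 0.00953). The median log2 difference of the list was 0.24 in kidney (0.01 over all genes tested), 1.20 in skin (0.05), -0.84 in lung (0.04) and 0.38 in liver (0.02). These counts leaned on single vehicle libraries. Without replicate 4, 3 were called higher in kidney (5.16% of all genes) and 1 in liver (8.42%), and without replicate 5, 1 was called higher in skin (1.3%) and 2 were called lower in lung (0.952%). The median of the list was then 0.03 in kidney, with 12 of 26 below 0, and 0.77 in skin. In lung it was -0.66, with 22 of 26 below 0, and in liver 0.41, with 2 of 8 below 0.

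Some activators and inhibitors of the proteases were called with age in kidney, liver and skin. In kidney 5 of 16 were called higher (7.75% of all genes), among them Serpine2, an inhibitor of plasminogen activators (1.30, SE 0.18, edgeR adjusted p = 0.000188), and Lrp1, the receptor that clears MMPs and TIMPs (0.95, SE 0.16, edgeR adjusted p = 0.000722). Klk1, a kallikrein, was the 1 gene called lower (5.5% of all genes; -1.07, SE 0.21, edgeR adjusted p = 0.00293). In liver 3 of 9 were called higher (11.7% of all genes), including Bsg (basigin, an MMP inducer, 1.09, SE 0.21, edgeR adjusted p = 0.00158), and Pcsk6 was the 1 called lower (10.8%). Without vehicle replicate 4, 2 were called higher in liver (8.42% of all genes) and none lower (7.17%). In skin, of 15 tested, Bsg was the 1 called lower (5.35% of all genes; -0.91, SE 0.19, edgeR adjusted p = 0.0205) and Thbs2 and Pcsk5 were the 2 called higher (5.84%), and in lung 0 of 13 were called by edgeR, with 3 at an unadjusted p under 0.05. Without vehicle replicate 4, 3 were called higher in kidney (5.16% of all genes). Without vehicle replicate 5 edgeR called 0 in skin (1.3% of all genes higher, 1.32% lower), with 9 at an unadjusted p under 0.05.

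Some cytokines and transcription factors upstream of the proteases were called with age. In kidney 2 of 16 were called higher (7.75% of all genes) and none lower. These were Il1b and Socs3, which were called in kidney (log2 differences of 2.54, SE 0.47, and 1.97, SE 0.37) and in lung (2.97, SE 0.52, and 2.34, SE 0.46). In lung Ifng and Tnf were called too, with 4 of 19 higher (8.15% of all genes) and 2 lower (4.73%); without vehicle replicate 5 these were 3 (3.13%) and 0 (0.952%), with 7 at an unadjusted p under 0.05. In liver 5 of 9 were called higher (11.7% of all genes), among them Stat3 (1.59, SE 0.28, edgeR adjusted p = 0.000904), Tgfb1, and the AP-1 genes Jund (0.95, SE 0.23) and Junb (1.03, SE 0.29); without vehicle replicate 4, 2 were called (8.42% of all genes). In skin Tgfb1 was the 1 of 18 called, higher (5.84% of all genes, 1.24, SE 0.30, edgeR adjusted p = 0.0338). Without vehicle replicate 5 edgeR called 0 in skin (1.3% of all genes higher, 1.32% lower), with 1 at an unadjusted p under 0.05. With ABT-737 in liver, Tgfb1 and Socs3 of the 9 cytokines and factors were called lower than with vehicle (2.85% of all genes, Tgfb1 -2.47, SE 0.43). Of the 9 activators and inhibitors, Pcsk6 was called higher (1% of all genes). Without vehicle replicate 4, 1 cytokine or factor was called lower (1.66% of all genes) and no activator or inhibitor in either direction, with 3 at an unadjusted p under 0.05. In kidney 25 of 26 matrix substrates had a log2 difference below 0 with ABT-737 (median -0.47 against 0.01 over all genes), and 0 were called by edgeR, with 10 at an unadjusted p under 0.05. The 32 genes of the list summed to 2561 CPM in vehicle replicate 4, against 1700 and 1825 CPM in the other vehicle kidneys and 1512 to 1579 CPM with ABT-737, and the fibroblast markers were highest in the same library, as given above. Without it 22 of the 26 were below 0, with a median of -0.23 and 3 at an unadjusted p under 0.05; the part of fibroblasts was not tested. Of 10 other metalloproteinases tested in kidney, Adam15 was called higher with age (7.75% of all genes) and 2, Adam10 and Mep1b, lower (5.5%). In liver, of 5 tested, Adam17 was called higher (11.7% of all genes) and Adam9 lower (10.8%), and in lung Adam9 was the 1 of 15 called, higher (8.15%). Without vehicle replicate 4, none was called higher (5.16% of all genes) and 1 lower (2.24%) in kidney. In liver, also without replicate 4, none was called higher (8.42%) and 1 lower (7.17%). Without vehicle replicate 5 edgeR called 0 in lung (3.13% of all genes higher, 0.952% lower), with 2 at an unadjusted p under 0.05. In skin edgeR called 0 of 10, with 5 at an unadjusted p under 0.05.

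Several members were at or near 0 throughout. Mmp1a, Mmp20 and Mmp21 had 0 counts in all 39 libraries, and Adamts13, the plasma protease that cuts von Willebrand factor, had 1 count in 1 lung library. Mmp24 had at most 3 counts in any library. A difference in these members between groups was not detectable at this depth.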

How the data were processed

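Bulk RNA of kidney, liver, lung and skin was sequenced by a 3′ end method derived from MARS-seq. The authors deposited raw read counts per gene, as whole numbers that sum to a different total in each library, with skin in a table of its own and the other 3 tissues together. The submitters' processing notes name bcl2fastq, HISAT 0.1.5, HOMER and mm10, and whether molecular barcodes were collapsed or strand was used is not given in the sources used here. Tables were not combined, so skin was compared with no other tissue in a test. Groups were taken from the sample titles; the treatment labels of ABT-737 replicates 4 and 5 read ABT-738 and ABT-739, which were treated as ABT-737.

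For each tissue, genes passing filterByExpr were fitted with edgeR 4.0.16 (R 4.3.3; TMM scaling, quasi-likelihood test, 1 fit over all 3 groups), and p-values were Benjamini-Hochberg adjusted over all genes tested, with a threshold of 0.05. SE is the absolute log2 difference divided by the root of F. Differences of effects and young tissues were tested in joint fits of kidney, liver and lung. Alternatives were DESeq2 1.42.0, its size factors, other low-count filters, fits with fewer samples, single libraries left out and a replicate block. The code was tested on simulated counts.

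Members and lists were chosen with earlier results of these data known. Members were named if called in a comparison within a tissue or part of a fixed core of 25 genes; other names were chosen after their values were seen. Genes of pathway lists were named only where called, at most 4 per list and comparison. The study counts mice in its RNA-seq groups, but the labels tie no library to a mouse, so p-values measure the spread between these samples. Nor do the labels say whether same-numbered libraries of different tissues share a mouse. The joint fits of kidney, liver and lung treated all libraries as separate samples. Members and lists were also refitted without libraries that stood apart, chosen after seeing the data. No pair of libraries within a group agreed within sampling noise. Same-numbered vehicle and ABT-737 libraries deviated together in each of the 3 pairs in lung (correlations of 0.176, 0.296 and 0.427), but not in kidney, liver or skin. No label gives such a pairing, and lungs of unlike number reached a correlation of 0.303. The blocked lung value is given beside the unblocked one. Gene positions are those of the deposited table (mm10); promoters come from RefSeq.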

Additional observations from a re-analysis of the deposited data

Results flagged for a closer look

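Adamtsl5 in young lung replicate 1 (81.4 CPM) lay apart from the other 3 young lungs (59.1 to 61.9 CPM), with a gap of 0.877 of the group's range. It was the only such case in 37 groups of 4 young libraries, and chance gives about 1 in 20.

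The effect of age differed between kidney and lung for 4 members in the joint edgeR fit. The adjusted p was 0.0198 for Adamtsl1 (log2 differences of 1.47 in kidney and -0.90 in lung), 0.0287 for Timp2 (0.25 and -0.81), 0.0174 for Adamts15 (0.97 and -0.70) and 0.0153 for Adamtsl5 (0.93 and -1.01). The Adamtsl1 counts of kidney were 13, 13 and 8 with vehicle and 3, 6, 9 and 5 in the young.

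Between lung and liver the edgeR adjusted p of the difference in age effect was 0.00176 for Timp2, 0.0439 for Adamts14 (log2 differences of -0.57 and 0.88), 0.0268 for Adamts15 and 0.0144 for Mmp17. Adamts15 had 0 counts in every young liver and 1, 1 and 3 in vehicle livers, and Mmp17 had 0 in every young liver and 1, 4 and 4 in vehicle livers, so no fold is given for these 2. Adamts14, Mmp17 and Adamtsl1 are named after their values were seen. For ABT-737 against vehicle, Timp2 differed between lung and liver with an edgeR adjusted p of 0.0371.

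For Adamtsl4 and Adamtsl5 all vehicle skins were below all young skins, and all vehicle kidneys were above all young kidneys. The share of all genes with such opposite separation is not given here, so these members cannot be set against it. The difference between the tissues was not tested because the tables were kept apart. Adamtsl4 was -1.23 in skin and 0.64 in kidney on the log2 scale, and Adamtsl5 was -0.76 in skin and 0.95 in kidney.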

How the results depend on the processing

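None of 21 counts of calls and 12 single calls changed direction. Counts of members called with age moved most in skin. The skin count was 1 in the fit as reported (11.2% of all genes), 11 with DESeq2 (18.7%), 2 with DESeq2 size factors and 11 with no filter. It was 6 with only the compared groups and 0 to 8 without 1 library. It was 0 without vehicle replicate 5 (2.62% of all genes) or young replicate 1 or 2 and 8 without ABT-737 replicate 3. For ABT-737 against young skin, 0 (5.17% of all genes) became 5 with DESeq2 (14.9%), 2 with its size factors and 4 with no filter. It became 2 with at least 10 counts in every library, 1 with only the compared groups and 0 to 5 without 1 library. For age in lung, 3 (12.9% of all genes) became 5 with DESeq2, 6 with no filter (10.6%), 5 with only the compared groups and 0 to 7 without 1 library. In lung, ABT-737 against vehicle gave 1 in place of 0 with DESeq2 (Adamtsl1) and with no filter (Adamtsl3), and 0 to 1 without 1 library; against young, no filter gave 1 (Mmp12). For age in liver, 2 became 1 with DESeq2, with at least 10 counts and with only the compared groups, and 1 to 2 without 1 library; ABT-737 against vehicle gave 1 with no filter (Mmp7) and 0 to 2 without 1 library. For age in kidney, 5 became 2 with at least 10 counts, which left few members, and 3 to 6 without 1 library (3 without vehicle replicate 4 or young replicate 3); ABT-737 against young gave 3 with no filter and 1 to 2 without 1 library. For lung against liver, the age effect gave 2 in place of 4 with only the 2 tissues and 2 to 4 without 1 library, and the ABT-737 effect gave 0 in place of 1 with no filter and with only the 2 tissues and 0 to 1 without 1 library. For kidney against lung the ranges without 1 library were 0 to 5 for age and 0 to 1 for ABT-737. Shares of all genes are given, here or above, for only some of these settings. A count without one cannot be set against the calls over all genes. The cause of these moves was not tested.

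With the replicate number as a block, 2 members were called with age in kidney and 0 in each of liver, lung and skin. Members called for ABT-737 against young were 0 in kidney, and members called for ABT-737 against vehicle were 1 in lung (Adamtsl1, with 7.31% of all genes). The block changed no other count of calls by over 1.5 times. The share of all genes called under the block is given for that lung comparison only, so the other blocked counts cannot be set against it. Only in lung did same-numbered vehicle and ABT-737 libraries deviate together in every pair, and no label gives a pairing. Depth limited liver most, where 6 of 51 members could be tested.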
